A study of Mus musculus with 3 samples.

Results

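The genes described here build and shape caveolae, the flask-shaped pits of the plasma membrane, in endothelial cells (ECs) of the adult mouse lung. They comprise 9 genes of the 24346 gene symbols measured. The caveolins *Cav1*, *Cav2* and *Cav3*, the cavins *Cavin1*, *Cavin2* and *Cavin3*, the neck proteins *Ehd2* and *Pacsin2*, and the diaphragm protein *Plvap* were picked out by gene symbol. The cavins were listed under their older symbols *Ptrf*, *Sdpr* and *Prkcdbp*, and every gene of the list was found.

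The study asked how blood vessel ECs within the kidney come to differ, and lung was an organ to which kidney was compared. The libraries S38, S44 and S52 formed 1 group of ECs taken fresh from the lungs of wild type male C57BL/6J mice aged 6 to 8 weeks. The mice received a fluorescent antibody to VE-cadherin in the bloodstream, after which lungs were digested with collagenase and dispase and CD31+ VE-cadherin+ cells lacking CD45 and podoplanin were sorted. No other group was analysed here, and the sources used here do not say whether the 3 libraries came from separate mice, so the spread between them may be technical. Levels are given as FPKM, fragments per kilobase of transcript scaled to the depth of the library, which allows genes of different length to be compared. Because these are bulk samples, a lower level can mean fewer cells that express a gene or less RNA in each cell, and these cannot be told apart.

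Caveolae are abundant in lung capillaries, where they take part in transport across the vessel wall, in buffering membrane tension and in signalling. Caveolin-1 oligomers insert into the membrane with caveolin-2, and caveolin-3 takes their place in striated muscle. Cavin complexes coat the bulb from the cytoplasm, EHD2 and PACSIN2 act at the neck, and PLVAP forms the thin diaphragm that spans the opening of caveolae and of fenestrae in many endothelia.

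The 3 caveolin genes lie on chromosome 6. In GRCm38 with GENCODE M21 coordinates, *Cav2* spans chr6:17281185-17289115 and *Cav1* chr6:17306335-17341452, both on the + strand with 17.2 kb between them. *Cav3* lies 95.1 Mb further along the same strand at chr6:112459505-112472872. Because these relatives differed widely in level, the 250 bases upstream of the first listed RefSeq start of each (GRCm38.p6, + strand) are shown 5′ to 3′ for chr6:17306085-17306334 (*Cav1*), chr6:17280935-17281184 (*Cav2*) and chr6:112459255-112459504 (*Cav3*). Capitals mark matches on either strand to GGGCGG, the GC box, and to CANNTG, the E-box, and no marked matches overlap.
Cav1: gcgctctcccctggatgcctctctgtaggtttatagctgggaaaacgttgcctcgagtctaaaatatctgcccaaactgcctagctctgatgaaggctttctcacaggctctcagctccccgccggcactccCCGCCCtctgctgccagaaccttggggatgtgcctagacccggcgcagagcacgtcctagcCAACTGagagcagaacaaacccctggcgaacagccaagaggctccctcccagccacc
Cav2: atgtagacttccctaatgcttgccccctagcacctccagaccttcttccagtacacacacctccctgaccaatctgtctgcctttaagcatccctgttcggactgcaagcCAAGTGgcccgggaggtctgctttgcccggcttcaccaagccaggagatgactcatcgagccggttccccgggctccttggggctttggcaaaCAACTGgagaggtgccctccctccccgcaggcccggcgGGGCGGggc
Cav3: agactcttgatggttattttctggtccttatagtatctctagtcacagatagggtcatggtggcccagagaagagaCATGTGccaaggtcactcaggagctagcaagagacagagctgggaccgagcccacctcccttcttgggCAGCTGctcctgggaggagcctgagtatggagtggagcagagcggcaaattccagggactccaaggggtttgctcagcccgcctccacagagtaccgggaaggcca
*Cav1* held 1 GC box and 1 E-box in this window, *Cav2* held 1 GC box and 2 E-boxes, and *Cav3* held 2 E-boxes and no GC box. The windows of the second listed *Cav1* start, of the later listed *Pacsin2* starts and of *Cavin2* held no GC box either. The first listed windows of *Cavin1*, *Ehd2* and *Pacsin2* held 1 GC box each. Of 32851 RefSeq promoter windows of the same length, 32.7% held the GC box and 66.2% the E-box. The G and C content was 59.6% for *Cav1*, 62.0% for *Cav2* and 56.0% for *Cav3*. These matches describe the letters of the windows alone, since no binding or chromatin was measured.

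The other 6 genes are dispersed over the genome (GRCm38, GENCODE M21). *Cavin1* lies at chr11:100956733-100970887 on the - strand, *Cavin2* at chr1:51289126-51302960 on the + strand and *Cavin3* at chr7:105480083-105482300 on the - strand. *Ehd2* is also on chromosome 7, at chr7:15946958-15967567, *Pacsin2* at chr15:83375607-83464606 and *Plvap* at chr8:71497765-71511752, all on the - strand. Each is annotated as protein coding.

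Of the 9 genes, 8 had a mean of at least 1 FPKM, against a background of 48.3% of all gene symbols. The exception was *Cav3*. The means of the other 8 ran from 38.6 to 1294 FPKM. Over all 11770 genes averaging 1 FPKM or more, the median was 11.2 FPKM.

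**Figure D1:**
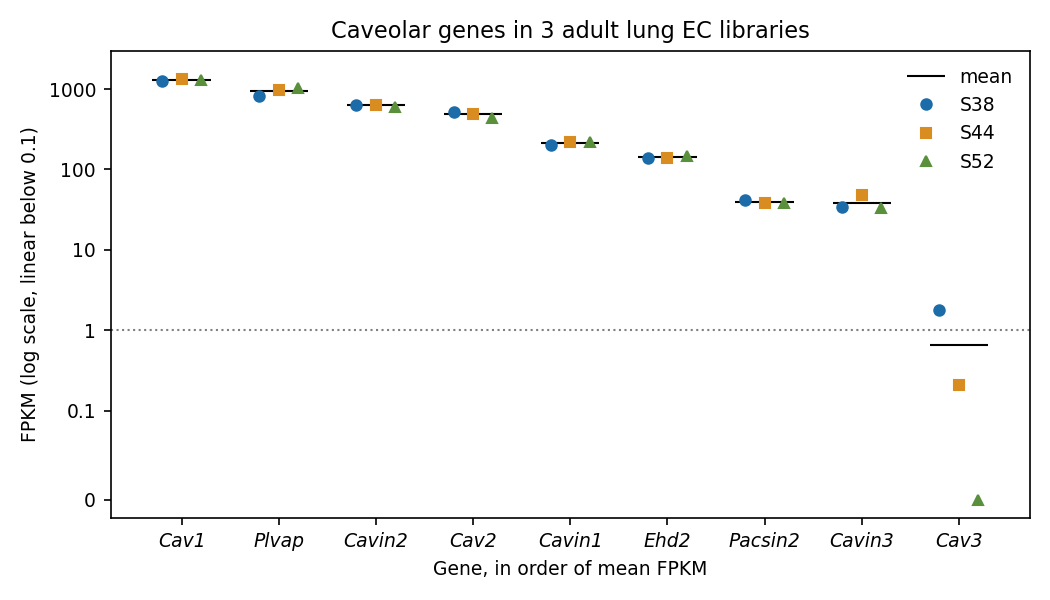
FPKM of each caveolar gene (log axis, linear below 0.1) in libraries S38, S44 and S52, with genes in order of their mean (black bar) and a dotted line at 1 FPKM. *Cav1* lies near 1294 FPKM in each library, *Pacsin2* and *Cavin3* overlap, and *Cav3* is at 1.76 FPKM in S38 and listed at 0 in S52.

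The caveolin RNA of these ECs was that of *Cav1* and *Cav2*. *Cav1*, which encodes the main structural protein of caveolae outside striated muscle, measured 1253 FPKM (S38), 1324 FPKM (S44) and 1307 FPKM (S52). Its mean of 1294 ± 37.1 FPKM (SD, n = 3) placed it at rank 70 of 24346 gene symbols. *Cav2*, whose product needs caveolin-1 to reach the plasma membrane, measured 522 FPKM (S38), 497 FPKM (S44) and 435 FPKM (S52), a mean of 485 ± 44.8 FPKM (SD, n = 3) and rank 217. The ranges of *Cav1* and *Cav2* did not overlap. The log2 ratio of *Cav1* to *Cav2* (FPKM + 1) was 1.26 (S38), 1.41 (S44) and 1.58 (S52), with a mean of 1.42 ± 0.16 (SD, n = 3). Correspondingly, *Cav1* made up 70.5%, 72.7% and 75.0% of the summed caveolin FPKM in S38, S44 and S52, and *Cav2* 29.4%, 27.3% and 25.0%.

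*Cav3*, the caveolin of heart and skeletal muscle, was near or below the detection level. S38 held 1.76 FPKM, S44 0.206 FPKM, and in S52 it was listed at 0. At the estimated depth these values correspond to about 67, 8 and 0 fragments, and a count of 0 in S52 allows up to 0.0879 FPKM, the level of 3 fragments, for counting error only. Library S38 set the mean of 0.656 FPKM, which was 0.103 FPKM without it. *Cav3* took 0.0992% of caveolin FPKM in S38 and 0.0113% in S44.

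Markers of striated muscle were measured beside *Cav3*, since mouse pulmonary veins carry heart muscle. The 6 marker genes had a summed level of 53.1 FPKM (S38), 33.7 FPKM (S44) and 32.5 FPKM (S52), and 4 of them had a mean of at least 1 FPKM. The atrial myosin light chain *Myl7* followed the same order as *Cav3*, with 20.4, 11.7 and 0 FPKM. The cardiac myosin heavy chain *Myh6* did so as well, with 0.642, 0.078 and 0 FPKM, and *Ckm* was also listed at 0 in S52. *Tnnt2*, with 7.48, 3.96 and 0.854 FPKM, and *Tnni3*, with 5.28, 3.92 and 1.02 FPKM, also followed that order. The cardiac actin *Actc1* did not, with 18.6, 13.4 and 30.6 FPKM. The part of muscle RNA in the *Cav3* values was not tested.

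Among the cavins, *Cavin2* was the most abundant RNA. *Cavin1*, which encodes the coat protein without which caveolae do not form, measured 201 FPKM in S38 and 219 FPKM in both S44 and S52, a mean of 213 ± 10.3 FPKM (SD, n = 3) and rank 452. *Cavin2*, whose product joins the coat and aids membrane curvature, measured 643 FPKM (S38), 641 FPKM (S44) and 601 FPKM (S52), a mean of 628 ± 24.0 FPKM (SD, n = 3) and rank 169. The lowest library of *Cavin2* was above the highest of *Cavin1*. The log2 ratio of *Cavin1* to *Cavin2* (FPKM + 1) was -1.67 (S38), -1.54 (S44) and -1.45 (S52).

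*Cavin3*, whose product binds protein kinase C delta and joins the coat through cavin-1, was the lowest of the 3 cavins and, on the deposited scale, the most variable of the 8 genes above 1 FPKM. It measured 34.2 FPKM (S38), 48.1 FPKM (S44) and 33.6 FPKM (S52), a mean of 38.6 ± 8.24 FPKM (SD, n = 3) and rank 2250. S44 stood above the other libraries, which were close to each other. Of its 1662 exonic bases, 374 overlap the gene model *Gm45667* on the opposite strand, and the libraries were not stranded, so reads of the pair cannot be told apart there. Of the summed level of cavins 1 to 3, *Cavin2* took 73.2%, 70.6% and 70.4% in S38, S44 and S52. *Cavin1* took 22.9%, 24.1% and 25.7%, and *Cavin3* 3.89%, 5.30% and 3.93%, in the same order of libraries.

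*Cavin2* is also made by platelets, and platelet markers differed widely between libraries. The median of 4 platelet genes (*Ppbp*, *Pf4*, *Itga2b* and *Gp9*), each with a mean above 1 FPKM, was 244 FPKM (S38), 216 FPKM (S44) and 9.11 FPKM (S52), and their sum was 1692 FPKM in S38 and 1345 FPKM in S44. The highest library of *Cavin2* was 1.071-fold above the lowest (FPKM + 1). The part of platelet RNA in the *Cavin2* values was not tested.

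The level of *Cav1* kept a narrow ratio to that of *Cavin1* within each library. The log2 ratio (FPKM + 1) was 2.63 (S38), 2.59 (S44) and 2.57 (S52), with a mean of 2.60 ± 0.03 (SD, n = 3), and its SD was the smallest of the 6 partner ratios computed. Such closeness was not particular to this pair. Of 6261 other genes averaging 10 FPKM or more, 135 were nearer to *Cav1* in pattern over the libraries than *Cavin1* was. *Cavin1* to *Cavin3* had the largest SD, with a mean log2 ratio of 2.45 ± 0.26 (SD, n = 3).

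At the neck, *Ehd2* was higher than *Pacsin2*. *Ehd2*, an ATPase that rings the neck and holds caveolae at the surface, measured 138 FPKM (S38), 139.9 FPKM (S44) and 149 FPKM (S52), a mean of 142 ± 5.85 FPKM (SD, n = 3) and rank 642. *Pacsin2*, an F-BAR protein that bends the membrane, measured 41.2 FPKM (S38), 38.8 FPKM (S44) and 38.1 FPKM (S52), a mean of 39.3 ± 1.61 FPKM (SD, n = 3) and rank 2207. The log2 ratio of *Ehd2* to *Pacsin2* (FPKM + 1) was 1.72 (S38), 1.82 (S44) and 1.94 (S52), and the ranges did not overlap. *Ehd2* was not the most abundant EHD gene. Its relative *Ehd4*, an endosomal ATPase, was 499, 599 and 522 FPKM in S38, S44 and S52, so that *Ehd2* took 18.0% ± 1.45 and *Ehd4* 67.9% ± 1.64 (SD, n = 3) of the summed EHD level. *Pacsin2* took 97.7% ± 0.738 (SD, n = 3) of the summed pacsin level.

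*Plvap*, the sole known structural component of endothelial diaphragms, was second to *Cav1*. It measured 815 FPKM (S38), 976 FPKM (S44) and 1034 FPKM (S52), a mean of 941 ± 114 FPKM (SD, n = 3) and rank 93. On the deposited scale S38 was the lowest library and S52 the highest. The highest *Plvap* value was below the lowest of *Cav1*, and the log2 ratio of *Cav1* to *Plvap* (FPKM + 1) was 0.62 (S38), 0.44 (S44) and 0.34 (S52). Relative to the pan-endothelial gene *Pecam1*, the FPKM ratio of *Plvap* was 0.724 (S38), 0.802 (S44) and 0.888 (S52). That of *Cav1* to *Pecam1* was 1.11, 1.09 and 1.12. *Gtpbp3* overlaps the *Plvap* locus on the opposite strand, shares 0 exonic bases with it and was at most 5.74 FPKM.

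Capillary EC markers moved between libraries beside *Plvap*. *Gpihbp1*, the anchor of lipoprotein lipase, was 661, 663 and 886 FPKM and the apelin receptor *Aplnr* 32.9, 43.0 and 43.8 FPKM in S38, S44 and S52, with the lowest value in S38 and the highest in S52 as for *Plvap*. *Car4* and *Ednrb*, which mark the aerocyte type of lung capillary EC, were lowest in S52, with 855, 959 and 582 FPKM for *Car4* and 143, 155 and 75.3 FPKM for *Ednrb*. Their part in the *Plvap* values was not tested.

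Taken from the highest mean to the lowest, the order was *Cav1*, *Plvap*, *Cavin2*, *Cav2*, *Cavin1*, *Ehd2*, *Pacsin2*, *Cavin3* and *Cav3*. In 7 of the 8 neighbouring pairs the order held in all 3 libraries and the ranges did not overlap. The ratio of means between neighbours was 1.375 for *Cav1* over *Plvap*, 1.498 for *Plvap* over *Cavin2*, 1.296 for *Cavin2* over *Cav2*, 2.274 for *Cav2* over *Cavin1*, 1.499 for *Cavin1* over *Ehd2* and 3.614 for *Ehd2* over *Pacsin2*. *Pacsin2* and *Cavin3* did not differ beyond their spread, with a ratio of 1.019, overlapping ranges and the order held in 2 libraries. With 3 libraries an exact two-sided sign-flip permutation test cannot go below p = 0.25. Each of the 6 pairs above *Pacsin2* gave this value (Benjamini-Hochberg adjusted p = 0.292 over 7 pairs), and *Pacsin2* against *Cavin3* gave an exact p of 1.0. For *Cavin3* against *Cav3*, which was listed at 0 in S52, no adjusted value was computed. The pairs were formed from the order of means in these same libraries, so the p-values lend that order no support.

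The caveolar genes varied little between libraries on the scale of the table. None of the 8 genes above 1 FPKM had its highest library over 1.5-fold above its lowest (FPKM + 1), against 34.2% of the 11770 genes at that level. Without S52 this background was 8.71%, so it rests largely on that library, and still none of the 8 passed. Among the 6269 genes averaging 10 FPKM or more, which hold the same 8, the background was 24.9%. Among the 887 genes at 100 FPKM or more, which hold 6 of them, it was 33.9%. On the deposited scale *Cav1* spread least, at 1.057-fold, and 96.2% of genes averaging 10 FPKM or more spread more. *Cavin2* spread 1.071-fold, *Ehd2* and *Pacsin2* 1.079-fold, *Cavin1* 1.089-fold, *Cav2* 1.2-fold, *Plvap* 1.269-fold and *Cavin3* 1.422-fold. For *Plvap* 53.9% of those genes spread more, and for *Cavin3* 31.9% did, which puts the latter among the more variable genes. *Cav3*, below the detection level, spread 2.762-fold.

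**Figure D2:**
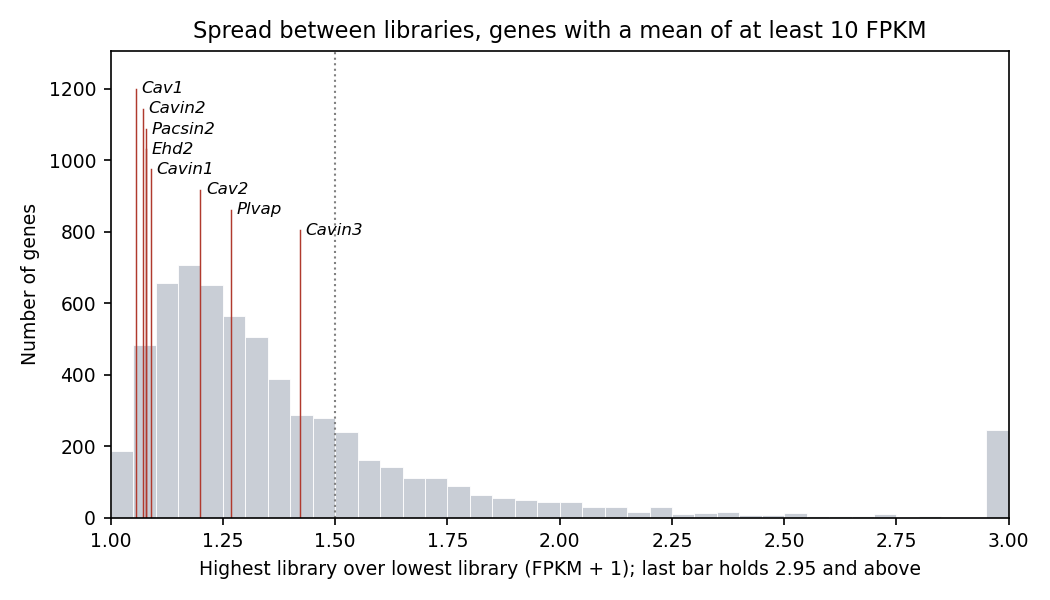
Number of genes (bars) by the highest over the lowest library on FPKM + 1, over genes averaging 10 FPKM or more, with red lines at the caveolar genes and a dotted line at 1.5-fold. *Cav1* at 1.057 and *Cavin2* at 1.071 lie at the left edge of the distribution, *Plvap* at 1.269 near its median of 1.29, and *Cavin3* at 1.422 to the right of it.

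Which library was highest or lowest depended in part on the scale. When each library was rescaled to a sum of 1000000, the highest library became S38 for *Cav1*, *Cavin1* and *Ehd2* and stayed the same for the other genes. The lowest became S44 for *Cav1*, *Cavin1*, *Cavin2*, *Ehd2*, *Pacsin2* and *Plvap*, and the spread of *Cav1* became 1.315-fold. On that scale *Cav2* had the widest spread of the 8, 1.475-fold, *Cavin3* spread 1.259-fold and *Plvap* least, at 1.197-fold, and 52.1% of genes averaging 1 FPKM or more passed 1.5-fold. Scaling by the median ratio over genes left the spread of *Cav1* at 1.047-fold and that of *Plvap* at 1.27-fold.

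EC markers were detected in all 3 libraries, and markers of ECs and of other cells differed between them. The estimated depth ran from about 33900000 fragments in S52 to 38800000 in S44. *Pecam1* ranged from 1125 to 1216 FPKM and *Cdh5* from 877 to 978 FPKM, while 2 of the 6 EC genes passed 1.5-fold, *Erg* with 59.2 FPKM (S38), 43.1 FPKM (S44) and 84.8 FPKM (S52) and *Emcn* with 156 FPKM (S38), 181 FPKM (S44) and 267 FPKM (S52). The 5 alveolar type 2 genes had a median of 182 FPKM (S38), 121 FPKM (S44) and 33.7 FPKM (S52). The 4 airway genes had one of 46.7, 43.6 and 10.6 FPKM, and the 4 leukocyte genes one of 6.50, 4.69 and 1.80 FPKM. In the same order of libraries the alveolar type 2 sums were 3756, 3156 and 760 FPKM. Airway genes summed to 2767, 2303 and 401 FPKM and leukocyte genes to 1061, 789 and 169 FPKM. *Lyz2* made up nearly all of the leukocyte sum, with 1047, 780 and 166 FPKM. *Ptprc* was 4.30, 2.06 and 0.434 FPKM, *Cd79a* 8.70, 7.32 and 3.17 FPKM, and *Cd3e* at most 0.261 FPKM. *Sftpc*, with 3333, 2862 and 658 FPKM, and *Scgb1a1*, with 2669, 2212.5 and 378 FPKM, were above *Cav1* in S38 and S44. The 3 adipocyte markers had a median of at most 0.147 FPKM, although fat cells are rich in caveolae. Of these, *Cidec* was 2.06 FPKM in S38 and 0.814 FPKM in S44 and was listed at 0 in S52. Caveolins are also made by alveolar type 1 cells, smooth muscle and fibroblasts. Although the sort removed podoplanin+ cells, the 5 alveolar type 1 genes, all above a mean of 1 FPKM, summed to 351, 375 and 276 FPKM in the same order of libraries. All 5 mural genes were above that mean and summed to 202, 120.2 and 184 FPKM, and all 4 fibroblast genes to 73.1, 56.0 and 41.9 FPKM. *Hopx*, which made up most of the alveolar type 1 sum with 294, 332 and 201 FPKM, was highest in S44, as *Cav1* was. *Ager*, *Rtkn2* and *Pdpn* of the same list were lowest in S44, with 33.4, 0.149 and 1.84 FPKM, and so was the mural sum. The part of these cells in the caveolar levels was not tested.

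**Figure D3:**
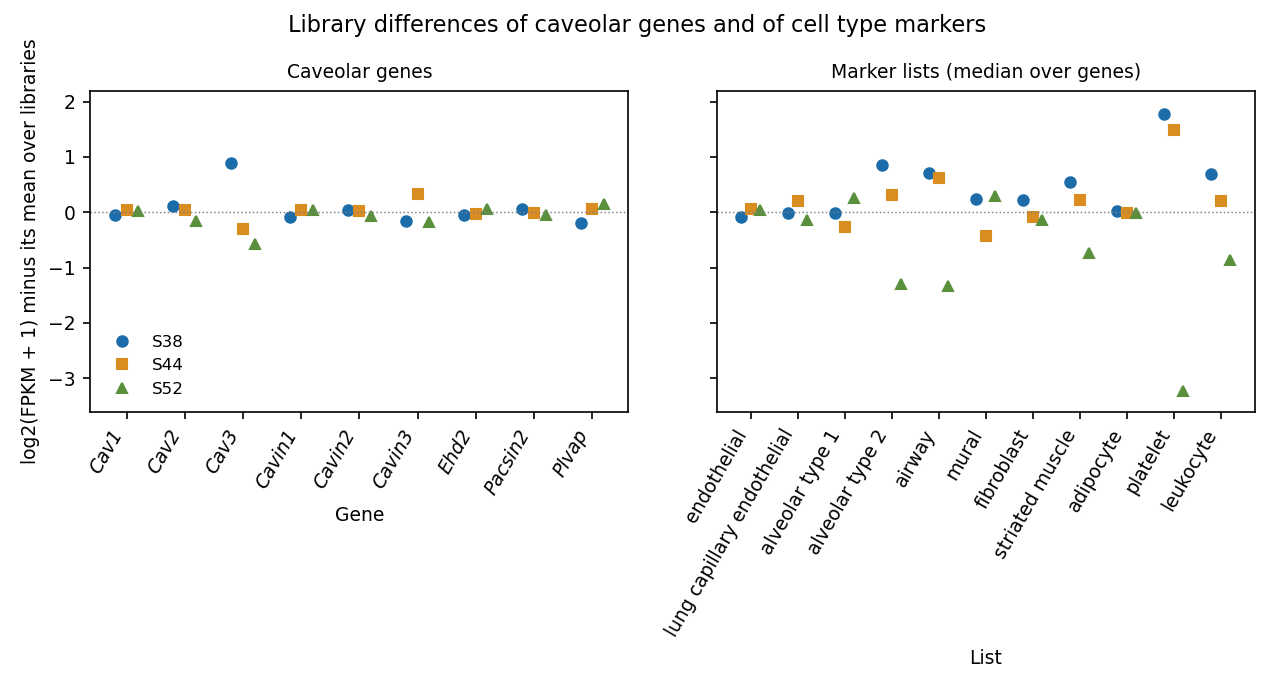
Deviation of log2(FPKM + 1) from its mean over the 3 libraries for each caveolar gene (left) and, as the median over genes, for each marker list (right). The caveolar genes other than *Cav3* lie between -0.20 and 0.33, whereas the platelet list lies at 1.77 in S38 and -3.23 in S52.

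Relatives of the caveolar coat were mostly low. Of 6 genes (*Cavin4*, *Pacsin1*, *Pacsin3*, *Ehd1*, *Ehd3* and *Ehd4*), 4 had a mean of at least 1 FPKM, the median was 3.90 FPKM, and none of those 4 spread over 1.5-fold. The muscle cavin *Cavin4*, listed as *Murc*, was 1.24, 1.25 and 1.54 FPKM in S38, S44 and S52. Unlike *Cav3*, it was present at a like level in all 3 libraries. *Ehd1* was 100.2, 112 and 105 FPKM and *Ehd3* 5.43, 6.87 and 7.06 FPKM.

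Of 5 genes for vesicle fission and flotillins, 4 had a mean of at least 1 FPKM, with a median of 29.8 FPKM over the list, and 1 of those 4 spread over 1.5-fold. Dynamins pinch vesicles off the membrane, and *Dnm2*, the form made in most tissues, was 80.1, 78.4 and 92.3 FPKM and took 96.5% ± 0.867 (SD, n = 3) of the dynamin level. *Dnm3*, the gene over 1.5-fold, was 1.08, 2.33 and 3.67 FPKM. The flotillins, scaffold proteins of other membrane domains, were 53.3, 62.3 and 62.7 FPKM for *Flot1* and 25.7, 27.4 and 36.3 FPKM for *Flot2*.

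The clathrin coat serves the other main route of uptake. All 8 of its genes had a mean of at least 1 FPKM, with a median of 63.3 FPKM, and none spread over 1.5-fold. The heavy chain *Cltc* was 93.2, 92.5 and 95.8 FPKM, so that *Cav1* exceeded it 13.4-fold in S38, 14.3-fold in S44 and 13.7-fold in S52. The adaptor subunit *Ap2m1* was 123, 131 and 113 FPKM.

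**Figure D4:**
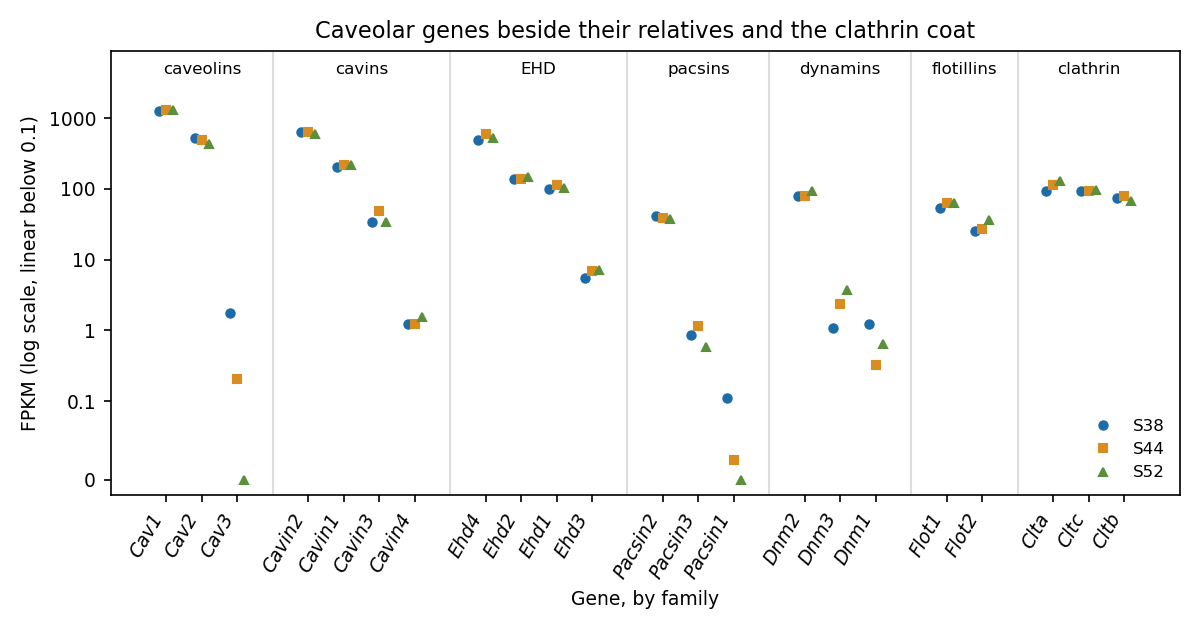
FPKM (log axis, linear below 0.1) in each library for the caveolar genes beside other members of their families, the dynamins, the flotillins and clathrin. *Cav1* at 1294 FPKM stands above the clathrin genes, *Ehd4* stands above *Ehd2*, and *Cav3*, *Cavin4*, *Pacsin1*, *Pacsin3* and *Dnm1* lie near or below 1 FPKM.

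Of 7 genes whose products sit in or act on caveolae, 6 had a mean of at least 1 FPKM, with a median of 19.8 FPKM, and 1 of those 6 spread over 1.5-fold. The fatty acid carrier *Cd36* was 1505, 1517 and 1507 FPKM, which was 1.17 ± 0.0302 times *Cav1* (SD, n = 3). *Nos3*, the endothelial nitric oxide synthase that caveolin-1 binds, was 19.2, 19.1 and 21.2 FPKM. Of the kinases that phosphorylate caveolin-1, *Src* was the gene over 1.5-fold, with 4.52, 3.07 and 2.1 FPKM, while *Fyn* was 37.6, 34.9 and 42.6 FPKM and *Abl1* 20.5, 20.3 and 16.8 FPKM. *Tfpi*, an anticoagulant protein found in caveolae, was 33.5, 36.9 and 43.5 FPKM. *Mfsd2a*, a lipid carrier that limits caveolae in brain ECs, held 0.185 FPKM in S38 and 0.026 FPKM in S44 and was listed at 0 in S52.

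The genes closest in pattern over the 3 libraries were found by the root mean square difference of their log2(FPKM + 1) deviations, taking only genes averaging 10 FPKM or more. They were *Zfpl1*, *Mtch1* and *Nedd8* for *Cav1*, *Ikbkb*, *Nutf2-ps1* and *Pspc1* for *Cavin1*, and *Atg5*, *Pvr* and *9430016H08Rik* for *Plvap*. With 3 libraries such likeness is common. Within 0.05 of the pattern of *Cav1* lay 500 of 6261 genes, and 437 lay within it for *Cavin1* and 183 for *Plvap*. The caveolar gene nearest to *Cav1* was *Cavin1* at 0.0252, with 135 other genes nearer.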

How the data were processed

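RNA-seq of 3 lung EC libraries was analysed (poly-A selected, not stranded, 51 bp paired-end reads, HiSeq 4000). The values, deposited by the authors as FPKM for each gene symbol, rest on mm10. The submitters' processing notes list bcl2fastq 2.17, FastQC 0.11.5, Trimmomatic 0.36, TopHat2 2.1.0 and Cufflinks 2.2.1. The methods of the study name STAR and HTSeq for counts, and the tool and gene annotation behind the FPKM values are not given in the sources used here. Columns were assigned to the libraries by their titles, and 0 value columns were left out.

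The deposited FPKM values were used without rescaling, in Python 3.11.15 with numpy 2.4.6, pandas 2.3.3 and scipy 1.17.1. A pseudocount of 1 was added before folds and log2 ratios. Detection was a mean of at least 1 FPKM, and variation a spread from lowest to highest library of over 1.5-fold. With 1 group there was no contrast, and neighbours in level were compared by an exact sign-flip permutation test with Benjamini-Hochberg adjustment. Every gene of the member, pathway and marker lists could be named, with the 3 genes most alike to *Cav1*, *Cavin1* and *Plvap*. The members were picked out by symbol, but they, the lists, motifs and depth method were chosen with earlier results of these data known.

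Depth was estimated from the step between low values of 7077 genes with 1 transcript. Of the low values, 78.4% in S38, 77.4% in S44 and 74.9% in S52 were within 0.15 of whole fragments, so counts were not recovered. The step search recovered known depths within 0.0959% on data simulated as whole counts with a fixed length correction, as the search itself assumes. That figure does not measure its error on the deposited values. Promoters came from RefSeq (GRCm38.p6), where 7 of 9 members matched, and those of *Cavin3* and *Plvap* were not analysed here. Alternatives were other scalings, filters and fold thresholds, and leaving out each library.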

Additional observations from a re-analysis of the deposited data

How the results depend on the processing

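No paired analysis was possible because the libraries form 1 group. With each library rescaled to a sum of 1000000, the mean FPKM was 943.9 for *Cav1*, 356.4 for *Cav2*, 155.2 for *Cavin1*, 460.1 for *Cavin2*, 27.8 for *Cavin3*, 103.8 for *Ehd2*, 28.9 for *Pacsin2* and 680.9 for *Plvap*, and 7 of 8 neighbours still kept their order in every library. The list medians became 2.82 FPKM for coat relatives, 21.6 for fission and flotillins, 46.0 for clathrin and 14.5 for proteins of caveolae, and the share of all genes over 1.5-fold became 52.1%. With no filter on low values, 1 member (*Cav3*) passed 1.5-fold, and 21.9% of genes did. At 10 FPKM, 2 coat relatives were detected. At 2-fold, 12.7% of genes passed. Leaving out 1 library gave 7 to 8 neighbours in order, 0 members over 1.5-fold, and list medians of 3.70 to 4.18 FPKM for coat relatives, 26.6 to 31.8 for fission and flotillins, 59.6 to 66.0 for clathrin and 20.1 to 20.4 for proteins of caveolae. The share of all genes over 1.5-fold was 23.5% without S38, 24.6% without S44 and 8.71% without S52. The *Cav3* values rest on few fragments, about 8 in S44 and 0 in S52, against about 67 in S38.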
